A study of Mus musculus with 6 samples.

Results

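A set of 30 genes that mark the cells of blood vessels was followed in cultured dorsal root ganglion (DRG) neurons, with 19 endothelial genes and 11 mural genes. They were chosen by symbol from the 45777 genes of the deposited table, and all 30 were found in it. The cultures came from the ganglia beside the spinal cord of wild-type C57BL/6 mice, labelled as 8-week-old females. Of the 6 libraries, 3 came from cultures given recombinant oncomodulin (ONCM) at 100 ng/ml for 12 hours and 3 from cultures given PBS as the control. Oncomodulin is a small secreted protein that binds calcium and is known from work on nerve regeneration. The labels name no sort or gate. They call the replicates biological without saying whether separate animals or cultures were used, so p-values measure only the spread between these samples. Endothelial cells line every vessel, and mural cells wrap around them, as pericytes on capillaries and as smooth muscle cells on larger vessels. Endothelial cells respond to vascular endothelial growth factor (VEGF), angiopoietins and Notch ligands, and they recruit mural cells with platelet-derived growth factor B, which is read by the receptor Pdgfrb. Ganglia hold a dense capillary network, and vessel cells can be carried into cultures made from dissociated ganglia.

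The libraries held 53770820 to 60291315 counts with ONCM and 55920700 to 64477014 counts with PBS. Neuron markers summed to between 14735 and 15469 TPM, a level that corrects for transcript length and library size, with ONCM and to between 13416 and 13684 TPM with PBS. The 30 vessel genes together made up 361 to 369 TPM with ONCM and 361 to 365 TPM with PBS, a small part of the RNA. Sex-linked transcripts separated the groups. Xist, the RNA of the inactive X chromosome, averaged 478 CPM (counts scaled to library size) with ONCM and 0.53 CPM with PBS. Ddx3y, Uty, Kdm5d and Eif2s3y of chromosome Y all fell, yet had reads in every library. They averaged 60.5, 16.9, 18.4 and 28.8 CPM with PBS, against 16.1, 5.22, 5.79 and 10.3 CPM with ONCM. Chromosome Y transcripts in both groups contradict the label of females. PBS cultures had the pattern of male cells, and ONCM cultures had transcripts of both sexes. How this arose was not tested. For all genes below, an effect of ONCM is therefore not separable from a difference in the sex or other source of the cells.

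Promoter sequences from RefSeq (build GRCm38.p6, the same assembly as mm10) are shown here because Erg, one of the endothelial genes, encodes a transcription factor of the ETS family, whose members bind a GGAA core. Windows reaching from 250 bases before to 50 bases after an annotated start were matched by symbol for 17 of the 30 genes, 10 endothelial and 7 mural. On either strand, 7 of the 10 matched endothelial genes held the word AGGAAG in at least 1 window, against 38.4% of all genes with a window, and 0 of the 7 mural genes did. Erg and Egfl7 have 3 windows each and Ly6c1 has 2. Among the matched endothelial genes that rose with ONCM, 5 of 6 held the word, and so did 2 of the 4 that did not pass. The word was chosen after the fold changes and the sequences were seen, so these counts are not a test. The start used for Flt1, Erg and Egfl7 lies inside the annotated gene, and so do the stretches shown for them. Capitals mark the word or its reverse complement in the stretches before the start for Eng (chr2:32646528-32646594, plus strand), Flt1 (chr5:147726044-147726155, minus strand), Emcn (chr3:137340889-137341005, plus strand), Erg (chr16:95459368-95459403, minus strand) and Egfl7 (chr2:26583770-26583805, plus strand).
Eng: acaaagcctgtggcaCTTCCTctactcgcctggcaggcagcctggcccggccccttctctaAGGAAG
Flt1: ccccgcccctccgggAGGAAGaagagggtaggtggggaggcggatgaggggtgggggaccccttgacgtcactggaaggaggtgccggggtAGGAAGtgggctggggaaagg
Emcn: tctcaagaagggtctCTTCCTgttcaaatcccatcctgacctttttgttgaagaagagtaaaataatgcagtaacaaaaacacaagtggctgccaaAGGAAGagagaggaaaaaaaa
Erg: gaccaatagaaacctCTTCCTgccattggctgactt
Egfl7: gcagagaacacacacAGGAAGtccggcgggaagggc

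The contractile genes of smooth muscle are textbook targets of serum response factor, which binds the CArG box. No window of a matched gene held an intact CArG box, which 1.63% of all windows hold. Acta2 was the only one of the 7 matched mural genes with a CArG box in which 1 base of the A/T core is replaced by C or G, a form found in 8.5% of all windows and in those of 4 endothelial genes, Egfl7, Eng, Kdr and Tek. Its pair of such boxes lies on the minus strand at chr19:34255440-34255465 and chr19:34255390-34255415, with the box in capitals. Both lie inside the annotated Acta2 gene (chromosome 19, 34240336 to 34255585), before the start that was used.
Acta2, farther box: gctgaggtCCCTATATGGttgtgtta
Acta2, nearer box: tctttgctCCTTGTTTGGgaagcgag
The search also covered 9 other words on both strands. CAGGAAG, which contains AGGAAG, was in Egfl7, Emcn and Erg, against 14.8% of genes, and TATAAA was in Erg, Flt1 and Ly6c1, against 15.7% of genes. CCGGAA, another word with the GGAA core, was in Kdr alone, against 16.7% of genes. TTCNNNGAA was in Notch3 alone, against 9.55% of genes. Neither the forkhead word GTAAACA nor the interferon-stimulated response element was in any of the 17 genes, against 4.05% and 3.99%. TGGGAA was in 4 endothelial and 2 mural genes, CCACCC in 6 and 3, and ATTGT in 3 and 3, against 28.3%, 34% and 34.4% of genes. These matches describe letters and say nothing of whether a factor binds there.

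By level per transcript length, the endothelial genes spanned from 46.5 ± 1.28 TPM for Egfl7 to 1.35 ± 0.0613 TPM for Tek with ONCM, and from 51.6 ± 1.76 to 1.11 ± 0.134 TPM for the same genes with PBS (SD, n = 3 each). Egfl7, a secreted protein of growing vessels, was followed in both groups by Podxl, Cdh5, Eng, Pecam1 and Emcn, in that order of mean TPM. Neighbours in this order often lay within their spread, such as Pecam1 and Emcn at 21.8 ± 0.667 and 21.5 ± 0.594 TPM with ONCM. All 19 were counted in every library, the lowest count being 99 reads for Sox17. The mural genes were less even. Rgs5, a pericyte-enriched inhibitor of G protein signalling, led with 29.0 ± 0.605 TPM with ONCM and 47.8 ± 0.299 TPM with PBS, followed in both groups by Tagln, Pdgfrb and Cspg4. The other 7 mural genes were below 3 TPM in every library. Higd1b, a marker of pericytes, had 4 reads in ONCM replicate 3 and 0 reads in the other 5 libraries, where a count of 0 allows up to 0.0464 to 0.0558 CPM, counting error only. Kcnj8, another pericyte marker, averaged 0.157 CPM with ONCM and 0.0947 CPM with PBS. Defining endothelial markers were thus measured well above the floor in every library, while Higd1b and Kcnj8 among the mural markers were at or near 0. Cnn1 was low, with 13 to 26 reads in each library. Abcc9 was also low, at 0.492 TPM with ONCM and 0.272 TPM with PBS, beside 0.390 and 0.375 TPM for Cnn1.

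**Figure D1:**
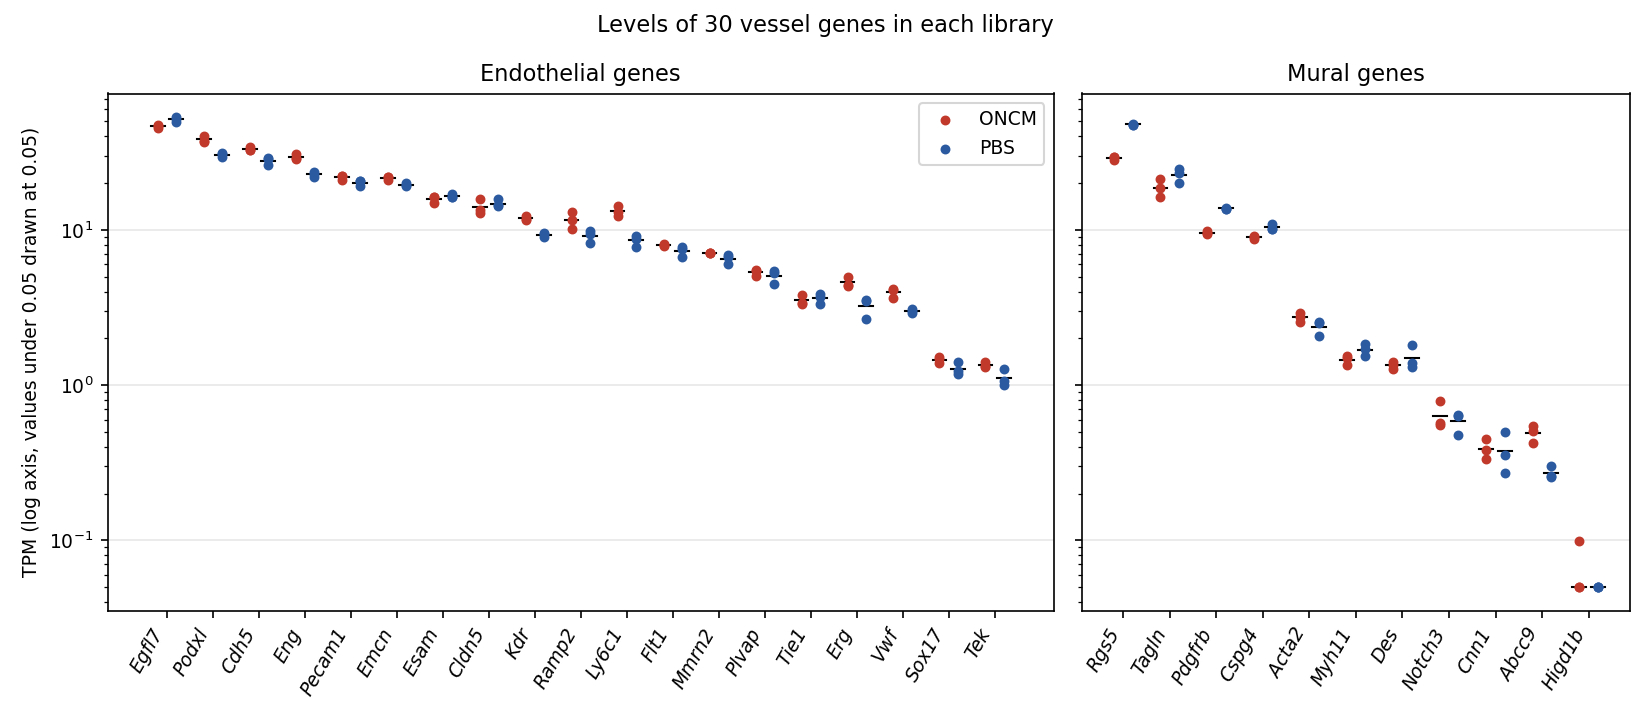
Level of each of the 30 genes in every library, in TPM on a log axis, with ONCM left of PBS for each gene and a line at the mean of 3 libraries. Genes run from high to low PBS mean, Rgs5 and Tagln lead the mural panel, and Higd1b lies at the bottom with 4 reads in 1 library.

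The first comparison set the endothelial genes of ONCM cultures against those of PBS cultures, and most of the genes were higher with ONCM, all by less than 2-fold. Of the 19 tested genes, 12 rose and 0 fell by edgeR's quasi-likelihood test at an adjusted p under 0.05, and 7 did not pass, against 23.9% of all 20354 tested genes that rose and 24.4% that fell. The median log2 fold change was 0.31, beside -0.00 over all tested genes, and values ran from -0.09 for Egfl7 to 0.69 for Ly6c1. The fold change was above 0 for 16 genes, against 49.7% of all tested genes. In 14 of the 19 genes all ONCM libraries lay above all PBS libraries in CPM, and in 5 the groups overlapped, against 27.6% of all tested genes with ONCM on top and 55.6% without overlap in either direction. The highest fold was 1.61, for Ly6c1, and none of the 30 genes rose by a log2 fold change of 1 or more, against 6.18% of all tested genes. In these bulk libraries more cells of a type and more RNA per cell cannot be told apart. The summed level of the 19 genes was 290 to 294 TPM with ONCM and 260 to 265 TPM with PBS, a ratio of 1.12, and 1.17 without Egfl7, the highest gene.

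Among the receptors, Kdr, the main signalling receptor for VEGF, had 28.4, 27.8 and 30.2 CPM with ONCM, against 22.1, 20.9 and 22.2 CPM with PBS. The groups did not overlap (log2 fold change 0.40, SE 0.05, edgeR adjusted p = 3.18e-06). Flt1, the VEGF receptor that also acts as a decoy, moved less, at 21.4, 21.6 and 22.2 CPM with ONCM, against 20.03, 19.99 and 17.7 CPM with PBS (log2 fold change 0.18, SE 0.06, edgeR adjusted p = 0.0181). PBS replicate 3 was the lowest library for Flt1, and without it the call was lost (0.11, edgeR adjusted p = 0.124). Eng, the TGF-beta and BMP co-receptor endoglin, stood at 41.1, 40.2 and 44.3 CPM with ONCM, against 30.8, 30.0 and 32.5 CPM with PBS. Every ONCM library was above every PBS library for Eng (log2 fold change 0.43, SE 0.05, edgeR adjusted p = 6.7e-07). Ramp2, the subunit that makes the calcitonin receptor-like receptor respond to adrenomedullin, was counted at 3.64, 4.65 and 4.25 CPM with ONCM, against 3.20, 3.40 and 2.86 CPM with PBS (0.41, SE 0.12, edgeR adjusted p = 0.00939). The Ramp2 groups came close to touching, and its call was lost without ONCM replicate 2 (0.32, edgeR adjusted p = 0.0629) or PBS replicate 3 (0.34, edgeR adjusted p = 0.0525). Calcrl, its partner, had a log2 fold change of -0.02 and did not pass.

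The angiopoietin receptors did not pass. Tek, which binds angiopoietins, had 2.79, 2.53 and 2.69 CPM with ONCM, against 2.41, 1.93 and 2.06 CPM with PBS, and its groups did not overlap (0.32, SE 0.14, edgeR adjusted p = 0.0634). Without PBS replicate 1, the highest PBS library, Tek passed (0.41, edgeR adjusted p = 0.0364). Tie1, the orphan co-receptor of Tek, was at 5.39, 6.01 and 5.39 CPM with ONCM, against 5.88, 5.67 and 5.14 CPM with PBS. The Tie1 groups overlapped (log2 fold change 0.01, SE 0.09).

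The junction and surface genes split. Cdh5, the VE-cadherin of endothelial junctions (chromosome 8, 104101613 to 104144504), had 53.8, 55.5 and 54.7 CPM with ONCM, against 45.2, 45.5 and 41.3 CPM with PBS. Its log2 fold change was 0.31 (SE 0.04, edgeR adjusted p = 7.45e-06), and the ONCM libraries stood clear of the PBS ones. Podxl, a sialomucin of the vessel lumen that neurons and other cells also make, stood at 82.1, 87.0 and 82.1 CPM with ONCM, against 65.3, 64.4 and 62.3 CPM with PBS (0.39, SE 0.04, edgeR adjusted p = 7.57e-08). Pecam1, the adhesion molecule CD31, which leukocytes and platelets carry as well, had 28.4, 29.9 and 30.4 CPM with ONCM, against 26.4, 26.7 and 25.0 CPM with PBS (0.18, SE 0.05, edgeR adjusted p = 0.00453). Emcn, the mucin endomucin of capillaries and veins, had 13.1, 12.8 and 12.6 CPM with ONCM, against 11.04, 10.96 and 11.5 CPM with PBS (0.20, SE 0.06, edgeR adjusted p = 0.0151). These rises in Pecam1 and Emcn were small, and the Emcn call was lost without PBS replicate 1 (0.18, edgeR adjusted p = 0.0594) or PBS replicate 2 (0.18, edgeR adjusted p = 0.0575). Mmrn2, a matrix glycoprotein of endothelial cells, rose by 0.18 (edgeR adjusted p = 0.0395), and this call was lost when any library except PBS replicate 3 was left out, with adjusted p from 0.0708 without ONCM replicate 2 to 0.188 without PBS replicate 2.

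Cldn5, the claudin of the blood-nerve barrier's tight junctions, gave no such difference, at 7.85, 7.45 and 9.33 CPM with ONCM, against 7.96, 7.96 and 8.84 CPM with PBS (log2 fold change -0.01, SE 0.09). Esam, another junction molecule, was equally level, at 12.1 ± 0.782 CPM with ONCM and 12.1 ± 0.252 CPM with PBS. Plvap, the diaphragm protein of fenestrated vessels, had 4.45 ± 0.23 CPM with ONCM and 4.05 ± 0.351 CPM with PBS and did not pass. Its annotated gene overlaps Gtpbp3 by 1872 bases, and reads of the pair may be shared because the strand setting of the counting is not given. Gtpbp3 had 6342 reads over all libraries, against 1477 for Plvap, and was lower with ONCM (-0.22, edgeR adjusted p = 0.00436).

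Both transcription factor genes had all ONCM libraries on top. Erg, the ETS factor that holds endothelial identity (chromosome 16, 95359169 to 95586600), had 6.49, 5.63 and 5.82 CPM with ONCM, against 4.33, 3.38 and 4.46 CPM with PBS. It rose by 0.56 (SE 0.11, edgeR adjusted p = 4.73e-04), a clear separation at a low level. Sox17, an arterial endothelial factor, stood at 2.27, 2.33 and 2.45 CPM with ONCM, against 1.78, 1.77 and 2.13 CPM with PBS (0.31, SE 0.14, edgeR adjusted p = 0.0782). Sox17 did not pass with all libraries, and passed without PBS replicate 3, its highest PBS library (0.40, edgeR adjusted p = 0.0463).

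The secreted proteins differed from each other. Vwf, the clotting protein von Willebrand factor, stored in endothelial cells, had 15.04, 14.8 and 13.4 CPM with ONCM, against 10.3, 10.9 and 10.2 CPM with PBS, and the groups stood apart (log2 fold change 0.46, SE 0.07, edgeR adjusted p = 1.72e-05). Egfl7 had 24.5, 23.6 and 25.3 CPM with ONCM, against 26.3, 25.0 and 26.7 CPM with PBS, so its groups overlapped and it did not pass (-0.09, SE 0.05, edgeR adjusted p = 0.165). On log2(TPM + 1), Egfl7 was lower with ONCM (-0.15, limma adjusted p = 0.0147). The median of all tested genes was also lower on the TPM scale, at -0.06, and Egfl7 was at -0.08 relative to it.

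Ly6c1, a small surface protein of endothelial cells and some monocytes on chromosome 15, had the highest fold of the 19. It was at 4.52, 5.03 and 4.73 CPM with ONCM, against 2.60, 3.24 and 3.06 CPM with PBS, with no overlap (0.69, SE 0.11, edgeR adjusted p = 6.91e-05). Ly6c2, its near-identical neighbour and a monocyte marker, was at 0.342 CPM with ONCM and 0.276 CPM with PBS, and reads between such copies are uncertain.

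**Figure D2:**
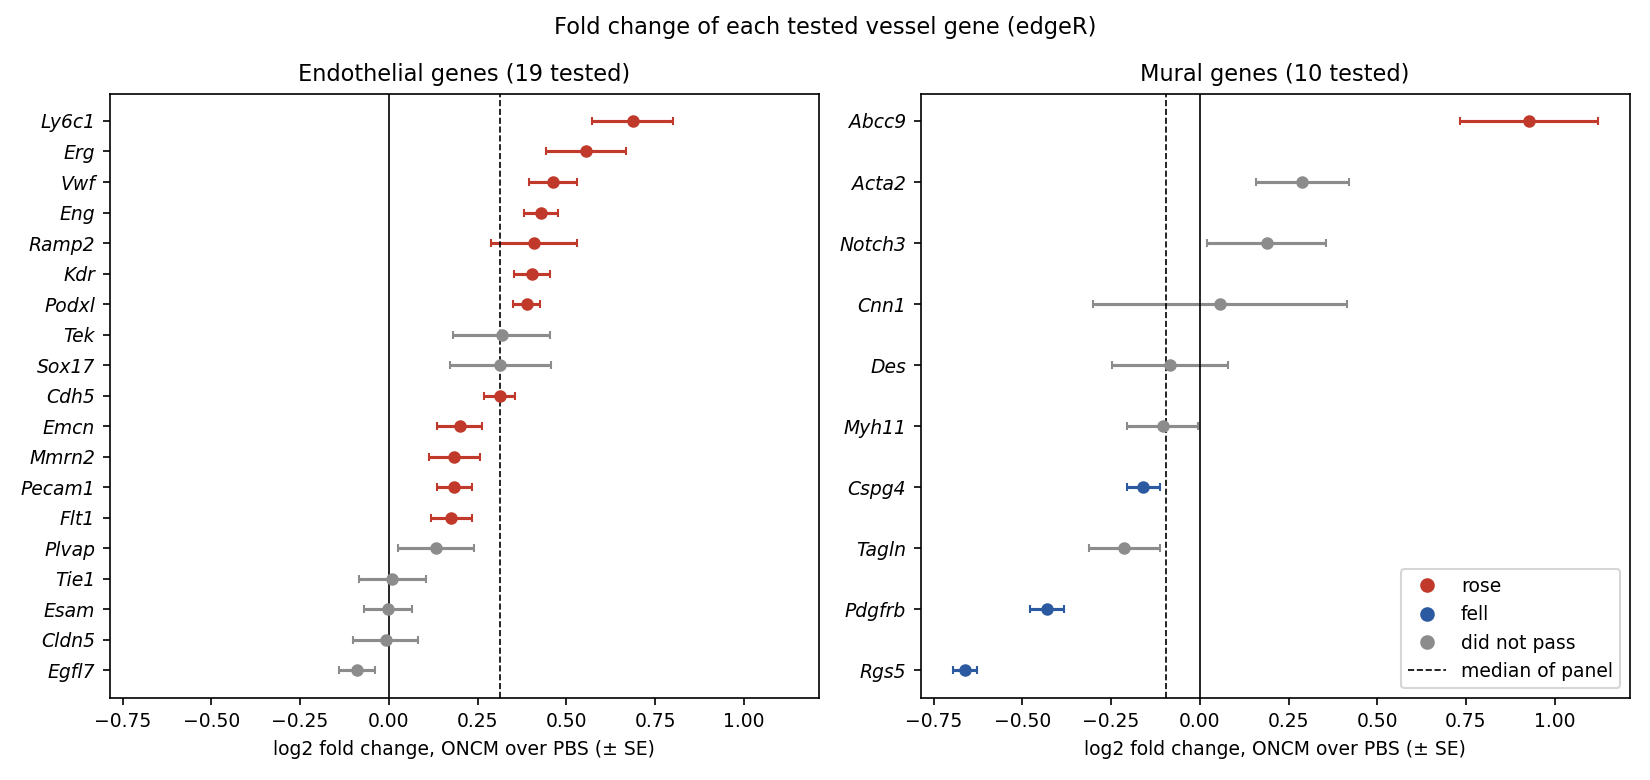
Log2 fold change of each tested gene, ONCM over PBS, with its SE from edgeR, for 19 endothelial genes and 10 mural genes. Endothelial values lie between -0.09 and 0.69 with a median of 0.31, while mural values spread from -0.66 for Rgs5 to 0.93 for Abcc9.

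The mural genes had calls in both directions. Of the 10 that passed the filter on low counts, 1 rose, 3 fell and 6 did not pass, against 23.9% and 24.4% of all tested genes. Their median log2 fold change was -0.09, and 2 genes had all ONCM libraries above and 3 had all below the PBS libraries, against 27.6% and 28.0% of all tested genes. The eleventh gene, Higd1b, was too low to test. Summed over all 11, the mural genes stood at 71.6 to 74.6 TPM with ONCM and 99.5 to 103.5 TPM with PBS, a ratio of 0.723. Rgs5 carried much of that sum, and without it the ratio was 0.827.

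The 3 falls were in genes expressed by pericytes, while Abcc9, another pericyte gene, rose, and Higd1b and Kcnj8 were at or near 0. Which cells of the cultures made the RNA of the 3 genes was not tested. Rgs5 (chromosome 1, 169655501 to 169695813) had 49.0, 49.0 and 48.3 CPM with ONCM, against 77.0, 76.8 and 77.4 CPM with PBS. The values within each group lay within 1 CPM of each other, and the log2 fold change was -0.66 (SE 0.03, edgeR adjusted p = 1.84e-11). Pdgfrb, the receptor through which pericytes are recruited and which fibroblasts carry too, had 21.7, 20.9 and 21.1 CPM with ONCM, against 28.5, 28.8 and 28.7 CPM with PBS (-0.43, SE 0.05, edgeR adjusted p = 5.15e-07). Cspg4, the NG2 proteoglycan of pericytes, which some glia also express, had 29.5, 30.0 and 29.5 CPM with ONCM, against 34.5, 32.3 and 32.5 CPM with PBS. That fall was small (-0.16, SE 0.05, edgeR adjusted p = 0.00758), although the groups did not overlap.

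Abcc9, the sulfonylurea receptor subunit of the pericyte and smooth muscle potassium channel, was the 1 rise. It had 93, 79 and 90 reads with ONCM, against 50, 51 and 44 reads with PBS, and 1.73, 1.32 and 1.61 CPM, against 0.773, 0.912 and 0.761 CPM. The log2 fold change was 0.93 (SE 0.19, edgeR adjusted p = 6.36e-04), and 0.23 on log2(TPM + 1), a scale that understates changes at low levels. Kcnj8, the pore subunit of the same channel, was too low to test. Notch3, the Notch receptor of smooth muscle and pericytes, stood at 1.86, 2.58 and 1.93 CPM with ONCM, against 2.01, 2.06 and 1.54 CPM with PBS, which overlapped (0.19, SE 0.17). The non-coding genes Gm38585 and Gm41568 overlap Notch3 in the annotation and may share reads with it.

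Of the 5 contractile and cytoskeletal genes of smooth muscle 0 passed in either direction, against 48.3% of all tested genes. Tagln, the actin-binding protein SM22, was the highest of them at 10.6, 12.0 and 14.01 CPM with ONCM, against 12.4, 15.5 and 14.6 CPM with PBS, and the groups overlapped (-0.21, SE 0.10, edgeR adjusted p = 0.0944). Tagln passed as lower without ONCM replicate 3 (-0.32, edgeR adjusted p = 0.00743) or PBS replicate 1 (-0.31, edgeR adjusted p = 0.0153). With the replicate number as a block it also passed (-0.22, edgeR adjusted p = 0.0244). Its gene overlaps Pcsk7 by 2480 bases, and Pcsk7 was higher with ONCM by 0.24 (edgeR adjusted p = 0.00443). Acta2, the smooth muscle actin, stood at 2.83, 3.07 and 2.72 CPM with ONCM, against 2.06, 2.54 and 2.47 CPM with PBS, with no overlap but no call (0.29, SE 0.13, edgeR adjusted p = 0.0813). Myh11, the smooth muscle myosin heavy chain, averaged 4.43 ± 0.289 CPM with ONCM and 4.76 ± 0.201 CPM with PBS. Des, the intermediate filament desmin, averaged 1.71 ± 0.0967 CPM with ONCM and 1.81 ± 0.326 CPM with PBS. Cnn1, calponin, had 19, 17 and 18 reads with ONCM, against 26, 16 and 13 reads with PBS, where a difference was not detectable at this depth (0.06, SE 0.36). Together these 5 genes summed to 22.4 to 26.9 TPM with ONCM and 25.6 to 31.1 TPM with PBS, which overlap. The 6 other mural genes, with 1 rise and 3 falls among 5 tested, summed to a mean of 48.7 TPM with ONCM and 72.9 TPM with PBS, a ratio of 0.668. Rgs5 alone gave 29.0 and 47.8 TPM of these means. The calls were 20% rising and 60% falling, against 23.9% and 24.4% of all tested genes.

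Further genes of the same cells, outside the 30, were read beside them. The 29 tested other endothelial genes held 9 rises, 2 falls and 18 without a call, at a median log2 fold change of 0.12. That is 31.0% rising and 6.90% falling, against 23.9% and 24.4% of all tested genes, so the share of rises was near the background. Sox7, an endothelial transcription factor related to Sox17, rose by 1.34 (edgeR adjusted p = 4.74e-08), and Adgrf5, Robo4 and Cyyr1 rose by 0.48, 0.56 and 0.84. The falls, named after their values were seen, were Mfsd2a, a lipid transporter of barrier vessels, and Apold1, an endothelial early response gene, at -0.17 and -0.28. The 23 tested other mural genes held 8 rises, 4 falls and 11 without a call, at a median of -0.03, or 34.8% rising and 17.4% falling, against 23.9% and 24.4% of all tested genes. Among them Kcnmb1, the beta subunit of the calcium-activated potassium channel of smooth muscle, fell by 1.48 on the log2 scale to 16.6 CPM with ONCM, against 46.5 CPM with PBS. With PBS it stood above Tagln, Myh11 and Acta2, at 14.2, 4.76 and 2.36 CPM, and which cells made it was not tested. Itga7, an integrin chain that neurons and glia also make, rose by 1.18 and stood at 551 TPM with ONCM and 251 TPM with PBS. Anpep, an aminopeptidase, and Mcam, the adhesion molecule CD146, rose by 1.48 and 0.28.

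Activated endothelium shows adhesion molecules to leukocytes, and among 7 genes of this kind there were 4 rises, 1 fall and 2 without a call, at a median of 0.60. The shares were 57.1% and 14.3%, against 23.9% and 24.4% of all tested genes. E-selectin (Sele), made by endothelial cells, stood at 20.5 CPM with ONCM and 11.4 CPM with PBS, a rise of 0.86 in log2 (SE 0.06, edgeR adjusted p = 1.09e-09). P-selectin (Selp) rose by 0.36, and Icam1 and Vcam1, which glia and fibroblasts also make, rose by 0.73 and 0.97. The fall, named after its value was seen, was Ackr1, the chemokine-binding receptor of venules and red blood cells, at 3.20 CPM with ONCM and 8.65 CPM with PBS (edgeR adjusted p = 0.0439). The 5 tested lymphatic endothelial markers held 3 rises and 1 fall, or 60% and 20%, against the same background. Pdpn, Prox1 and Reln were higher by 0.78, 1.20 and 0.17 and Lyve1 was lower at -0.30. Mmrn1, a defining lymphatic marker, was too low to test, and Pdpn and Reln are also made by other cells.

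Ligands with a role in vessels went both ways. Among 21 vessel growth factors there were 10 rises, 5 falls and 6 without a call, at a median of 0.08, or 47.6% and 23.8%, against 23.9% and 24.4% of all tested genes. For the receptors above, the ligands are named after their values were seen. Vegfa and Vegfb, which bind Flt1, and in the case of Vegfa also Kdr, fell, with log2 fold changes of -0.16 and -0.76, while Vegfc and Vegfd rose by 0.76 and 0.81. Of the Tek ligands Angpt2 rose by 0.18, and Angpt1, at -0.09, did not pass. Pdgfb, the ligand of Pdgfrb, rose by 0.52 to 12.8 CPM with ONCM, against 8.88 CPM with PBS (edgeR adjusted p = 4.22e-06), and Pdgfd, another ligand of it, fell to 0.907 CPM with ONCM, against 1.72 CPM with PBS. Tgfb3, a transforming growth factor, fell to 16.6 CPM with ONCM, against 32.0 CPM with PBS, while Tgfb1 rose to 10.3 CPM with ONCM, against 5.76 CPM with PBS. Angptl4, an angiopoietin-like lipase inhibitor, and Cxcl12, a chemokine that guides vessel growth, rose by 0.63 and 0.47. Among 13 further receptors there were 4 rises, 3 falls and 6 without a call, at a median of 0.07. Their shares of 30.8% and 23.1% were near the 23.9% and 24.4% of all tested genes. Acvrl1, the endothelial BMP receptor that works with Eng, rose by 0.73, Nrp2 and Tgfbr1 rose by 0.30 and 0.25, and Nrp1, the VEGF and semaphorin co-receptor, had -0.40. The 13 Notch pathway genes held 4 rises and 5 falls at a median of -0.05, or 30.8% and 38.5%, against 23.9% and 24.4% of all tested genes, with Rbpj and Notch1 raised by 0.29 and 0.21 and Jag2 and Hey2 at -0.55 and -0.70. A list of 18 genes, serum response factor with its cofactors and listed targets, held 10 rises and 4 falls at a median of 0.16. That is 55.6% and 22.2%, against the same background. Ankrd1, Tes and Actb rose by 2.73, 1.02 and 0.41, and Ccn2 had -0.90. Most of these ligands and targets are made by many cell types, and the counts do not separate cells.

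**Figure D3:**
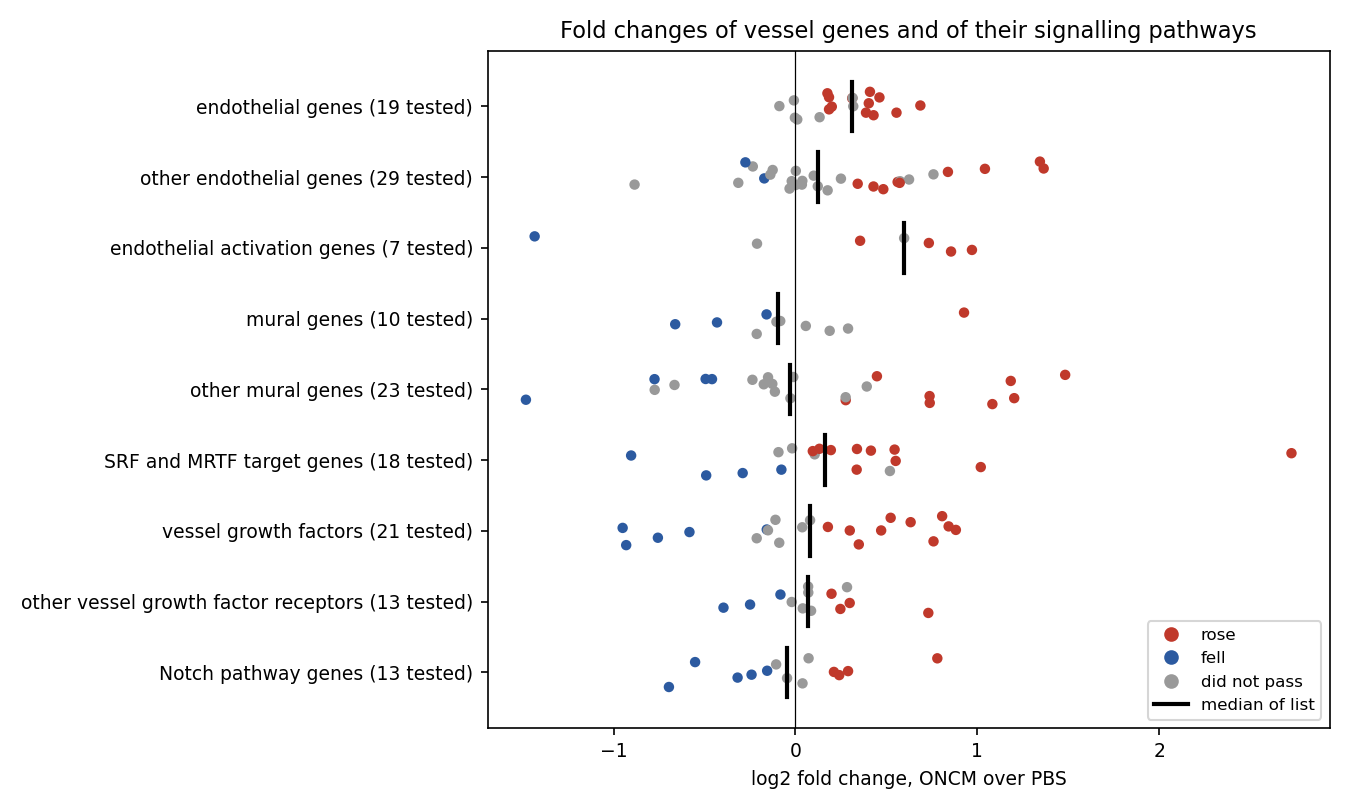
Log2 fold change of every tested gene in the vessel lists and their signalling pathways, ONCM over PBS, coloured by call, with the median of each list as a black bar. The endothelial genes have a median of 0.31 and no fall, while the mural genes have a median of -0.09.

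Markers of other cells moved in the same libraries, and their part in the vessel results was not tested. The calls below stand beside 23.9% of all tested genes that rose and 24.4% that fell. Macrophage markers rose in 10 of 11 cases and summed to 227 to 240 TPM with ONCM and 71.6 to 76.5 TPM with PBS, with Mpeg1, C1qc, C1qb and Lyz2 higher by 1.97, 3.09, 2.32 and 1.52. Platelet markers rose in 3 of 4 tested cases and summed to 24.1 to 29.5 TPM with ONCM and 12.9 to 17.2 TPM with PBS. Gp1bb, Itga2b and Pf4 rose by 0.93, 0.41 and 1.23, Ppbp did not pass, and Gp9 was too low to test. Macrophages and platelets share Pecam1 with endothelial cells, and platelets share Vwf. Of 6 neutrophil and monocyte markers 3 rose, with sums of 10.6 to 11.04 TPM with ONCM and 7.82 to 8.30 TPM with PBS. Ly6g, Csf3r and Ccr2 rose by 3.78, 1.19 and 1.70, S100a9 was at -0.62 without passing, and Ly6g belongs to the same gene family as Ly6c1. T, B and NK cell markers were nearly absent at 3.14 to 3.59 TPM with ONCM and 3.34 to 4.60 TPM with PBS. Ncr1 was at 0 in all 6 libraries, and of 3 tested genes Cd8a rose. Cd8a had only 27, 35 and 9 reads with ONCM, against 9, 11 and 5 reads with PBS, and its groups overlapped in CPM.

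The calls here also stand beside 23.9% of all tested genes that rose and 24.4% that fell. Fibroblast markers, which share Pdgfrb with mural cells, rose in 7 of 12 cases and fell in 0. They summed to 461 to 469 TPM with ONCM and 294 to 304 TPM with PBS, the opposite direction from Pdgfrb, with Dcn, Lum, Clec3b and Scara5 higher by 0.82, 0.94, 2.39 and 0.92. Red blood cell markers fell in 4 of 5 cases and rose in 0. Hba-a1, Hba-a2, Hbb-bs and Hbb-bt had log2 fold changes of -0.66, -0.66, -0.45 and -0.42, although reads of these near-identical copies may be shared. Their list summed to 237 to 244 TPM with ONCM and 353 to 378 TPM with PBS. Skeletal muscle markers, of which 1 of 4 tested rose, summed to 2.99 to 3.20 TPM with ONCM and 1.77 to 2.50 TPM with PBS, where Acta1, whose sequence is close to that of Acta2, rose by 1.24 to 0.996 CPM with ONCM, against 0.419 CPM with PBS. Of 4 tested perineurial markers Slc2a1, Cldn1 and Itgb4 rose by 0.57, 0.39 and 0.18 and Ntng1, which neurons also make, had -1.08. Slc2a1, the glucose transporter, is a barrier vessel gene as well. Schwann cell markers rose in 6 of 11 cases, summing to 3681 to 3773 TPM with ONCM and 3371 to 3421 TPM with PBS, with Drp2, Pmp22 and Mbp higher by 0.26, 0.22 and 0.18. Satellite glia markers rose in 1 of 7 cases, Glul, and fell in 1, Gja1, or 14.3% each way, both under the background shares. Their sums of 2835 to 3108 TPM with ONCM and 2893 to 3157 TPM with PBS overlapped. Of 7 neuron markers 2 rose, Tubb3 by 0.80, and 4 fell, with Snap25, Rbfox3 and Nefh at -0.53, -0.67 and -0.48. The shares were 28.6% and 57.1%, so the share of rises was near the background.

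**Figure D4:**
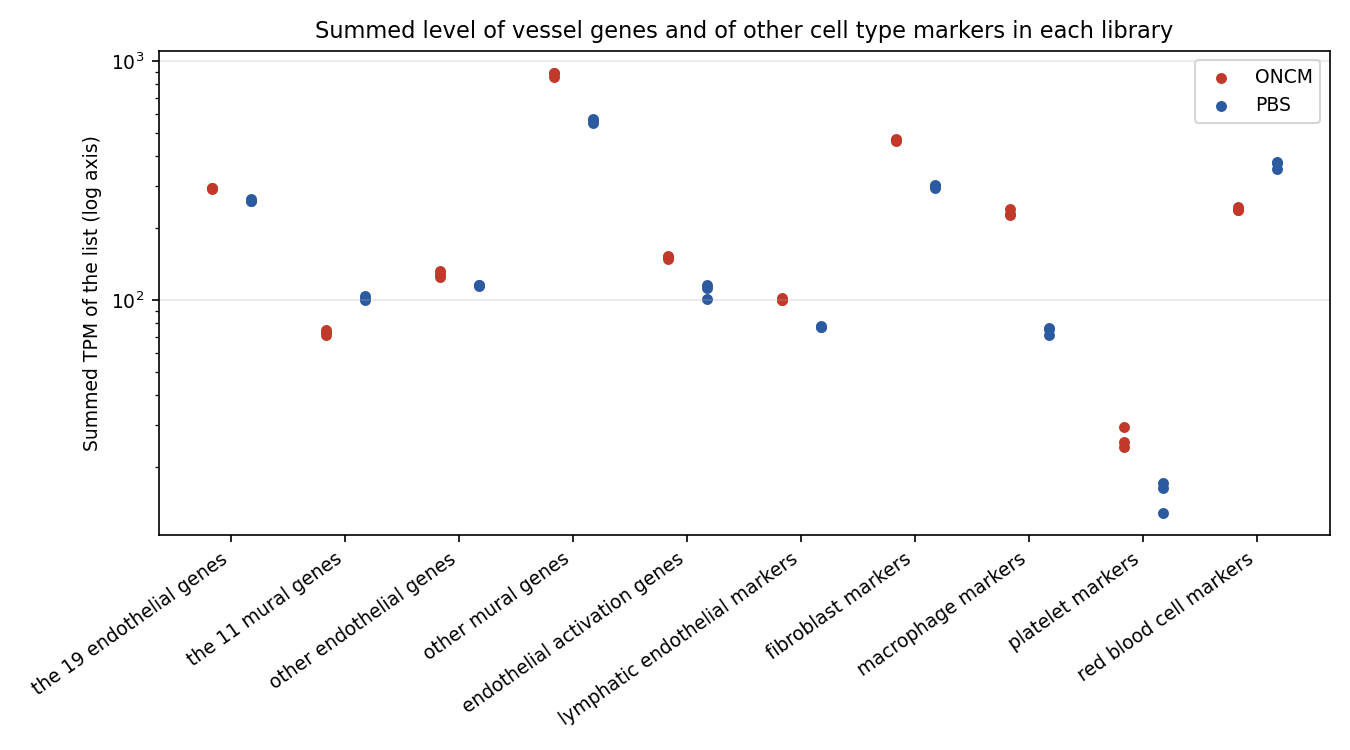
Summed TPM of 10 lists in each of the 6 libraries, on a log axis, with ONCM left of PBS: the endothelial, mural, other endothelial, other mural, endothelial activation, lymphatic, fibroblast, macrophage, platelet and red blood cell genes. Endothelial genes are at 290 to 294 TPM with ONCM and 260 to 265 TPM with PBS, mural genes at 71.6 to 74.6 TPM with ONCM and 99.5 to 103.5 TPM with PBS, and the groups do not overlap in any of these 10 lists.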

How the data were processed

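RNA was sequenced from 6 cultures, and the authors deposited 1 table with read counts, FPKM and TPM per gene and library. The deposited counts are raw read counts per gene and were used for all main tests. The TPM values deposited by the authors give levels and an alternative scale, and the FPKM values deposited by the authors were not used here. The build mm10 is named per the submitters' processing notes. No aligner, counter, annotation or strand setting was found, being not given in the sources used here. Columns were matched by the sample codes of the labels. Coordinates come from RefSeq GRCm38.p6, matched by Entrez number for 45679 of 45777 genes.

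The main test was run on counts with edgeR 4.0.16 under R 4.3.3 (filterByExpr, TMM scaling, robust quasi-likelihood F-test, no covariate), and p-values were adjusted by Benjamini-Hochberg over all 20354 tested genes. "Rose" and "fell" mean an adjusted p under 0.05. SE was taken as the absolute log2 fold change over the root of the F statistic, and CPM values are TMM-scaled. The script was tested on simulated data. Alternatives used limma 3.58.1 on log2(TPM + 1) and log2(TPM + 0.1), DESeq2 1.42.0, other scalings and filters, a replicate block and leaving out each library. Replicates differed by 2.76 to 7.09 in chi-square per degree of freedom, and all 6 were kept. ONCM replicate 3 gave 7.09 and 6.60 against ONCM replicates 1 and 2, which differed from each other by 3.10. The vessel genes and lists, and the rule that names all 30 genes and up to 4 genes with the smallest p from each further list, were chosen with earlier results of these data known. Promoter words and the stretches shown were chosen after the fold changes and the sequences were seen. Genes named because a count was small were chosen after their values were seen. Intervals and floors cover counting error only. A gene that the naming rule picked is not reported here.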

Additional observations from a re-analysis of the deposited data

How the results depend on the processing

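The 12 endothelial rises ranged from 10 to 11 when any 1 library was left out, and the 3 mural falls from 3 to 4. Cdh5, Kdr, Eng, Vwf, Erg, Ly6c1 and Podxl among the endothelial genes, and Rgs5, Pdgfrb, Cspg4 and Abcc9 among the mural genes, passed in the same direction under all 14 alternatives. DESeq2 called 8 endothelial rises, without Flt1, Emcn, Ramp2 and Mmrn2. On log2(TPM + 1) and on log2(TPM + 0.1) 9 endothelial genes rose, without Pecam1, Flt1 and Mmrn2, and 1, Egfl7, fell. On those scales 3631 and 3600 of all genes rose and 5628 and 5590 fell, against 4869 and 4960 in the counts. With no filter on low counts, Mmrn2 did not pass (adjusted p = 0.0649).

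Directions reversed only in genes that did not pass. Tie1 had -0.039 on log2(TPM + 1) and -0.048 on log2(TPM + 0.1), and -0.050 to 0.047 when 1 library was left out. On the TPM scale the median log2 ratio of all tested genes was -0.064, and relative to that median Tie1 was at 0.014, above 0 as in the counts. Esam had 0.0029 with RLE scaling, 0.0022 with upper quartile scaling, 0.0074 with a filter of 1 CPM in 3 libraries, and -0.039 to 0.050 when 1 library was left out. Cldn5 had 0.0019 with the filter of 1 CPM, and -0.11 to 0.058 when 1 library was left out. Leaving out 1 library gave -0.12 to 0.31 for Cnn1 and -0.19 to 0.063 for Des. The cause of the other reversals was not tested.

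With the replicate block 12 endothelial genes rose and 0 fell, and 1 mural gene rose and 4 fell, Tagln added, with 4733 and 4864 genes over the table. Deviations of equal replicate numbers correlated at -0.0152, -0.00486 and 0.0129, which gives no sign that the numbers pair the samples. With 3 libraries per group this check cannot exclude pairing. The ratio of summed levels, added after the data were seen, was 1.21 in CPM and 1.12 in TPM for the endothelial genes, with 1.17 without Egfl7, and 0.757 in CPM and 0.723 in TPM for the mural genes, with 0.827 without Rgs5. Leaving out each library gave 1.11 to 1.12 and 0.716 to 0.731. Low counts limit Cnn1, Abcc9, Notch3 and Higd1b.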
